A study of Mus musculus with 4 samples.

Results

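Focal adhesions are plaques at the cell membrane where integrin receptors, bound to the matrix outside the cell, are coupled to actin filaments inside it. Talin binds the integrin tail, vinculin, paxillin and zyxin are assembled onto it, filamins and alpha-actinins crosslink the filaments, and nonmuscle myosin pulls on them. Many of these proteins are encoded by genes that the transcription factor Srf, with its actin-sensing cofactors, is known to control, and their levels are usually high in spread, contractile cells such as fibroblasts. The 44 genes described here were picked by name for these roles, with no threshold on a measured value. The choice was made with earlier results of these data known, so the list is not blind to them. The platform annotation gave at least 1 probe set with a single gene symbol to 43 of them, 118 probe sets in all, out of 18193 genes and 34945 such probe sets on the array. Ptk2, which encodes focal adhesion kinase, was not analysed here.

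Transcript levels were measured on 4 Affymetrix arrays of mouse embryonic stem cells, 2 of the wild type (WT) and 2 of a Suz12 knockout (Suz12KO). Suz12 is a core subunit of the chromatin-silencing Polycomb repressive complex 2. According to the design text, RNA from 3 clones of each genotype was combined in equal parts into a single pool. The labels name neither the cell line, the allele nor the culture conditions, and do not state if both arrays of one genotype carry the same RNA pool. The first and second array of a genotype are its replicates 1 and 2. The spread between them may therefore be technical, and every p-value below measures that spread only. Suz12 itself read 1097 and 1094 on the WT arrays against 217 and 369 on the Suz12KO arrays, a log2 fold change of -1.89 (SE 0.27, adjusted p = 0.00213). That call was lost when all Suz12 probe sets were averaged (-1.67, adjusted p = 0.0602).

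A signal is the brightness of a probe set on a linear scale, and the brightest probe set stands for each gene. A log2 fold change is the Suz12KO mean minus the WT mean of log2(signal + 16), and a gene is said to rise or fall where the Benjamini-Hochberg adjusted p of limma, over the 12735 genes tested, is under 0.05. The highest reading among 27 bacterial spike probe sets that were unused here lay between 141 and 195 on the 4 arrays and marks what background alone can give. None of the 43 genes lay within that level on both arrays of either genotype, and all 43 passed the filter on dim genes. Because signal depends on the probes as well as on the transcript, levels are compared between arrays and not between genes. In RNA from whole cultures, fewer cells of a type and less RNA per cell cannot be told apart.

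Transcripts of the adhesion and contraction machinery were mostly lower in Suz12KO. Of the 43 genes, 25 fell, 3 rose (Enah, Tns3 and Pdlim1) and 15 did not pass. Over all genes tested, 5.50% were called lower and 4.48% higher, 9.97% together. The median log2 fold change of the 43 was -0.53, against 0.035 for all genes tested. At least a 2-fold fall was called for 12 of the 43, and for 1.70% of all genes. The arrays of the genotypes did not overlap for 36 of the 43, including all 28 called ones, and for 52.9% of all genes. The median level of the 43 genes stood at percentile 89.0 of all genes tested, and bright genes were called more often. Among genes at or over their median level, 15.7% were called lower and 15.4% higher, and of the 22 of the 43 at or over it, 15 fell and 3 rose.

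limma was run here with a variance prior that follows signal level. With a constant prior it called 0 of the 43 genes at an adjusted p under 0.05, with 27 of them at an unadjusted p under 0.05. Of all 12735 genes it called 0 as well, with 2332 at an unadjusted p under 0.05. Averaging all probe sets of each gene gave 13 falls and 2 rises, beside 306 falls and 305 rises over all genes. Of the 28 calls, 14 were kept under averaging, and the fall of Parva was new. After centring each array on its median, which moved the median of all genes from 0.035 to -0.13 and the calls over all genes from 570 higher and 700 lower to 294 higher and 1243 lower, 27 of the 43 fell and 2 rose. Without the first WT array, the second WT array, the first Suz12KO array or the second Suz12KO array, 18, 19, 21 and 21 of the 43 fell. Without the second Suz12KO array there were 5 rises in place of 3.

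**Figure D1:**
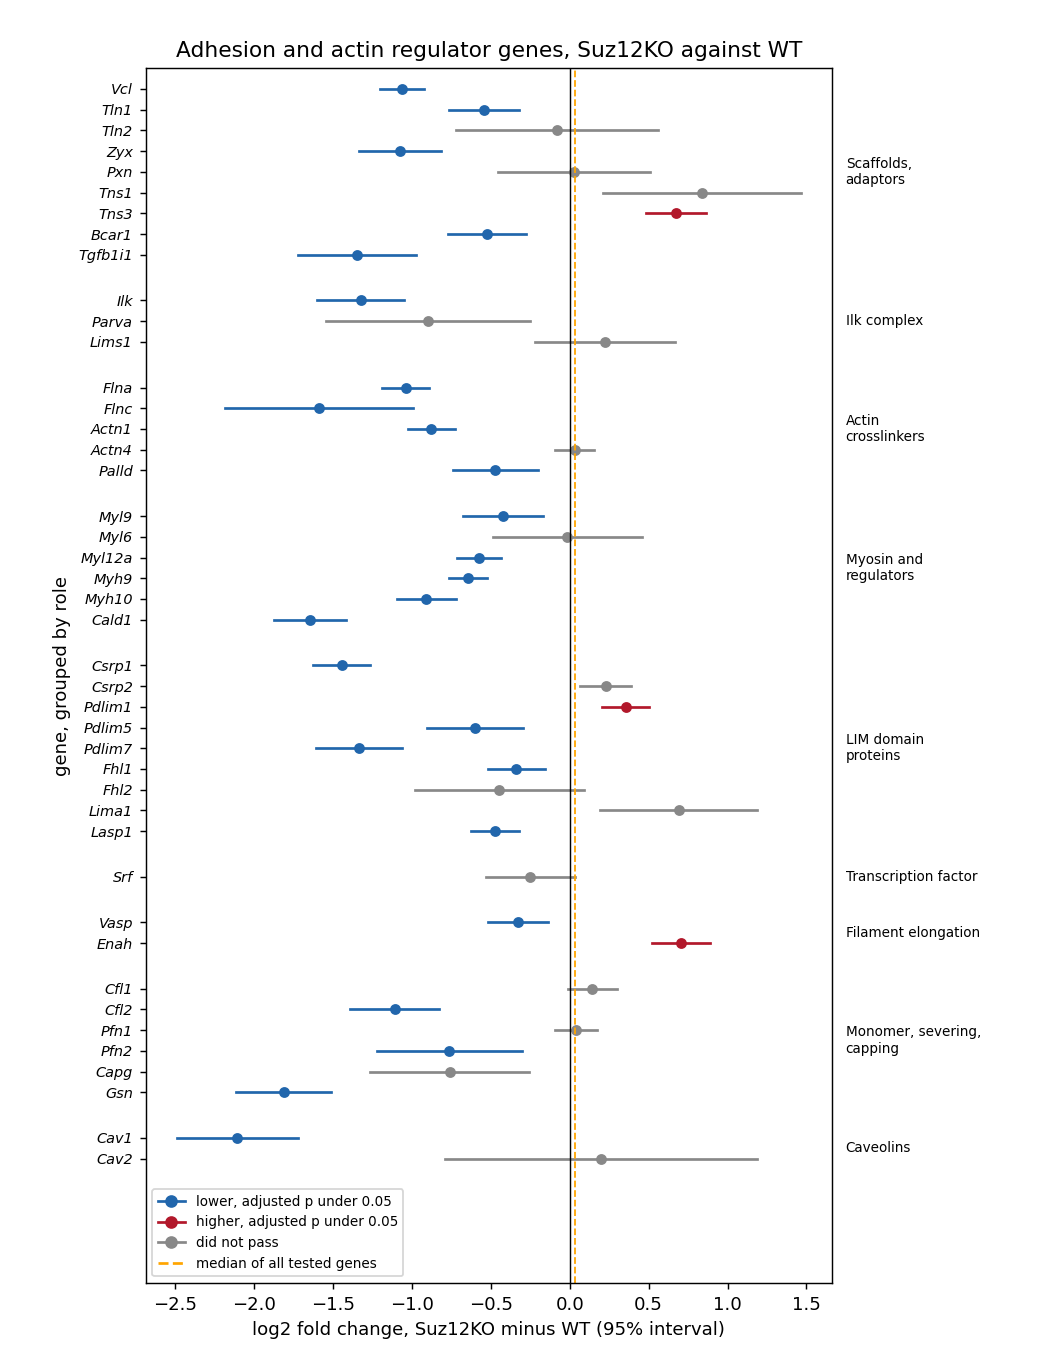
Log2 fold change of each of the 43 genes (Suz12KO minus WT, x axis) with its 95% interval from limma, grouped by role on the y axis. Blue marks the 25 genes that fell, red the 3 that rose and grey the 15 that did not pass, and the dashed line is the median of all genes tested, 0.035.

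Srf binds a DNA motif called the CArG box, so the promoters that hold it are shown first. RefSeq promoters of the GRCm38.p6 build, from 250 bases before to 50 after each gene's start, were matched by symbol for 38 of the 44 genes. The CArG box (a pair of C, then 6 bases that are each A or T, then a pair of G, with no mismatch, its own reverse complement in form) was found in 7 of these 38 genes, and in 1.81% of the 27025 genes with a promoter in that table. The following stretches lie before the gene's start and are written along the gene's strand, with the motif in capitals and up to 25 bases to either side.
Vcl: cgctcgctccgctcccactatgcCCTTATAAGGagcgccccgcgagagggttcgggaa
Myl9: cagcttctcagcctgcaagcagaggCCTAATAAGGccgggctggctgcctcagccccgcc
Fhl1: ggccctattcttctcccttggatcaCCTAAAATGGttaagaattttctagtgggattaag
Srf: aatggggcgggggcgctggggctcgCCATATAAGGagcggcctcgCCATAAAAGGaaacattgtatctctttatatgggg
Lima1: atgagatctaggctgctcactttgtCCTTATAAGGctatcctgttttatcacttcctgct
Myl6: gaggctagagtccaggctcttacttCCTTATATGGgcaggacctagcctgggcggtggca
Fhl2: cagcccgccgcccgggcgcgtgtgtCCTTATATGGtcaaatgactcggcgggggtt
They lie at chr14:20929148-20929205 on the plus strand for Vcl, chr2:156775278-156775337 on the plus strand for Myl9, chrX:56779556-56779615 on the plus strand for Fhl1 and chr17:46556190-46556269 on the minus strand for Srf. The remaining ones lie at chr15:99820162-99820221 on the minus strand for Lima1, chr10:128493025-128493084 on the minus strand for Myl6 and chr1:43163962-43164017 on the minus strand for Fhl2. A second Fhl2 start also had the motif, 96 bases upstream of it, and the Srf promoter holds 2 copies, which start 82 and 62 bases before its own gene. A match of letters shows neither binding nor use of a site.

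Genes with and without a CArG box in this window were both found among the falls. Of the 7, Vcl, Myl9 and Fhl1 fell and 4 did not pass, and of the other 31 genes with a promoter entry 21 fell and 3 rose. The TEAD motif GGAATG, searched on both strands, was present for 9 of the 38 genes, against 16.6% of all genes in the table. Of these 9, Vcl, Flna, Flnc, Palld, Myl12a, Myh10 and Cald1 fell, and Actn4 and Pfn1 did not pass. The AP-1 motif TGACTCA, on both strands, was present for 5 of the 38, against 5.95% of all, and 4 of these 5 (Zyx, Palld, Myl12a and Cald1) fell. Matches of different motifs overlapped in 0 of the 38 genes. The difference between genes with and without a motif was not tested.

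Among the scaffolds and adaptors of the plaque, 5 of 9 fell and 1 rose. Vcl encodes vinculin, which binds talin and actin and strengthens adhesions under load. Its signal was 10898 and 11144 on the WT arrays against 5232 and 5296 on the Suz12KO arrays, so that Suz12KO stood at 47.8% of WT, a log2 fold change of -1.06 (SE 0.062, adjusted p = 1.28e-05). Both WT arrays lay well apart from both Suz12KO arrays, and the second Vcl probe set fell by as much (log2 fold change -1.06, 2260.1 and 2030.1 on the WT arrays against 979 and 1067 on the Suz12KO arrays, adjusted p = 0.00131 among all probe sets). Zyx, which encodes the LIM protein zyxin of mature adhesions, read 5032 and 4519 on the WT arrays against 2511 and 2017 on the Suz12KO arrays, a log2 fold change of -1.08 (SE 0.12, adjusted p = 0.000413). Tgfb1i1 encodes Hic-5, a relative of paxillin that is common in smooth muscle and fibroblasts. It read 1929 and 1788 on the WT arrays against 621 and 834 on the Suz12KO arrays and had the largest fall of this role, a log2 fold change of -1.35 (SE 0.17, adjusted p = 0.000975).

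Tln1, which encodes the integrin activator talin, fell by less. It read 3481 and 3137 on the WT arrays against 2159.8 and 2372 on the Suz12KO arrays, with a log2 fold change of -0.54 (SE 0.099, adjusted p = 0.00813). Bcar1, which encodes the Src and Fak substrate p130Cas, fell from 3094 and 2599.6 to 1989 and 1942, or -0.53 (adjusted p = 0.0159). The second talin gene, Tln2, read 413 and 394 on the WT arrays against 432 and 334 on the Suz12KO arrays, with overlapping arrays and a log2 fold change of -0.082 (adjusted p = 0.904), 95% interval -0.72 to 0.56. Pxn, which encodes paxillin, overlapped as well, at 885 and 1065 on the WT arrays against 798 and 1225 on the Suz12KO arrays (log2 fold change 0.026, adjusted p = 0.963). Without the first WT array neither Tln1 (-0.47, adjusted p = 0.0608) nor Bcar1 (-0.40, adjusted p = 0.124) passed. Averaging probe sets ended both calls too (Tln1 -0.45, adjusted p = 0.265, Bcar1 -0.71, adjusted p = 0.0929).

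The tensins, which bind actin filaments and integrin tails in elongated adhesions, were not among the falls. Tns3 rose from 2817 and 2651 in WT to 4491 and 4259.5 in Suz12KO, a log2 fold change of 0.68 (SE 0.084, adjusted p = 0.000992). Its second probe set stood at 0.96 without passing (adjusted p = 0.168 among all probe sets). Tns1 read 443 and 402 on the WT arrays against 1009.5 and 582 on the Suz12KO arrays, and its log2 fold change of 0.84 did not pass (adjusted p = 0.0988). It passed without the second Suz12KO array (1.23, adjusted p = 0.0143), but 2 other Tns1 probe sets stood at -0.24 and 0.0076.

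**Figure D2:**
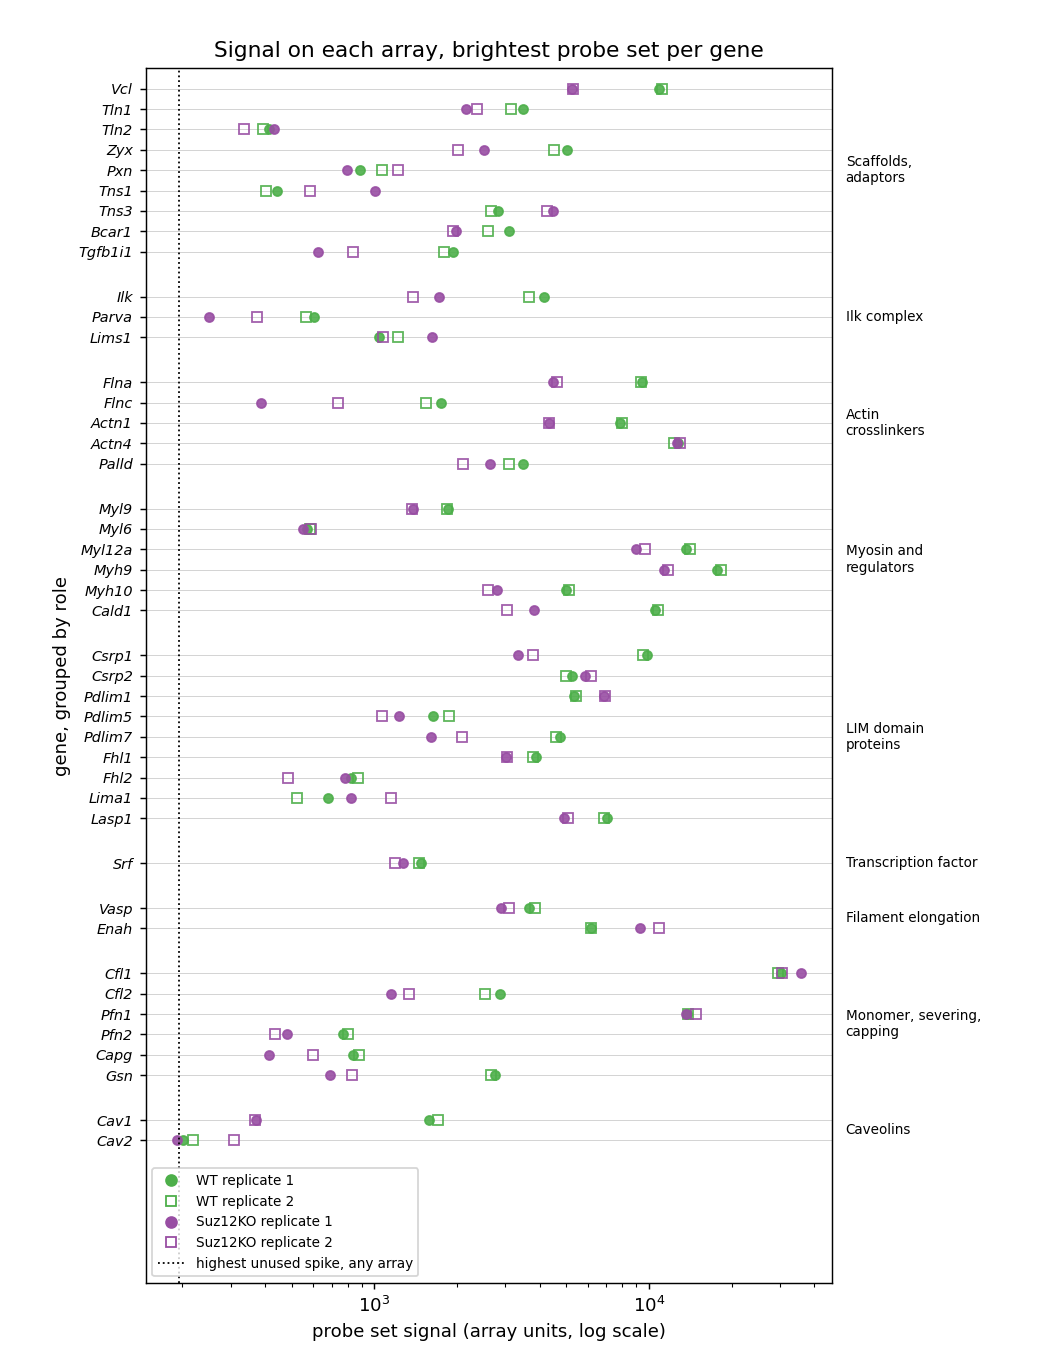
Signal of the brightest probe set of each gene on each of the 4 arrays (x axis, array units on a log scale), grouped by role on the y axis. Green marks WT and purple Suz12KO, filled circles replicate 1 and open squares replicate 2, and the dotted line is the highest unused spike of any array, 195. For Vcl, Flna, Cald1, Csrp1, Gsn and Cav1 both purple points lie clearly left of both green ones, and for Actn4 and Pfn1 the 4 points fall together.

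Integrin-linked kinase, its partner alpha-parvin and the LIM adaptor Pinch1 form a complex that links integrins to actin, and here the first of them was clearly lower. Ilk read 4131 and 3673 on the WT arrays against 1722 and 1388 on the Suz12KO arrays, a log2 fold change of -1.32 (SE 0.12, adjusted p = 0.000174). For Ilk this is the only probe set used. Parva, which encodes alpha-parvin, read 605 and 566 on the WT arrays against 251 and 373 on the Suz12KO arrays, and its log2 fold change of -0.90 did not pass (adjusted p = 0.0871). A second Parva probe set showed a wider gap, with 896 and 1049.7 on the WT arrays against 31.6 and 97 on the Suz12KO arrays. Both Suz12KO readings lay within the unused spikes, so that this probe set was at least 5.27-fold lower (adjusted p = 0.00171 among all probe sets). Parva passed without the second Suz12KO array (-1.17, adjusted p = 0.0365), after centring (-1.07, adjusted p = 0.0393) and when probe sets were averaged (-2.32, adjusted p = 0.015).

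The probe sets of Lims1, which encodes Pinch1, pointed in different directions. The brightest one, which has a suffix (s) that marks probes able to detect more than 1 transcript, read 1042 and 1218 on the WT arrays against 1621 and 1071 on the Suz12KO arrays, with overlapping arrays (log2 fold change 0.22, adjusted p = 0.547). Another read 801 and 802 on the WT arrays against 253 and 351 on the Suz12KO arrays and was lower (-1.38, adjusted p = 0.0113 among all probe sets). The unsuffixed probe set gave 634 and 798 on the WT arrays against 474 and 578 on the Suz12KO arrays (-0.43, adjusted p = 0.327). Whether these probe sets detect different Lims1 transcripts was not tested.

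Actin crosslinkers fell in 4 of 5 cases. Flna, the X-linked gene of filamin A, which joins filaments into networks and ties them to integrins, read 9429 and 9333 on the WT arrays against 4487 and 4625 on the Suz12KO arrays, a log2 fold change of -1.04 (SE 0.065, adjusted p = 1.77e-05). Its muscle-enriched relative Flnc had a larger fall with more spread between the Suz12KO arrays, at 1754 and 1536 on the WT arrays against 387 and 738 on the Suz12KO arrays (log2 fold change -1.59, SE 0.26, adjusted p = 0.00495). A second Flnc probe set read 892 and 701 on the WT arrays against 698 and 369 on the Suz12KO arrays. Its -0.62 did not pass (adjusted p = 0.29 among all probe sets). Actn1, which encodes alpha-actinin 1, read 7844 and 8005 on the WT arrays against 4309 and 4314 on the Suz12KO arrays, a log2 fold change of -0.88 (SE 0.066, adjusted p = 5.64e-05). Its other 2 probe sets fell too, with -0.97 and -1.39 (adjusted p = 0.000444 and 0.000643 among all probe sets).

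Actn4, the second nonmuscle alpha-actinin, read 12767 and 12295 on the WT arrays against 12647 and 12969 on the Suz12KO arrays. The arrays overlapped. The 95% interval -0.094 to 0.16 of its log2 fold change of 0.032 (adjusted p = 0.789) shares no value with that of Actn1 (-1.03 to -0.73). Palld encodes palladin, an actin-bundling scaffold of stress fibres. Its brightest probe set read 3467 and 3088 on the WT arrays against 2632 and 2112 on the Suz12KO arrays (log2 fold change -0.47, adjusted p = 0.0391), while a second one, 2612 and 2861 on the WT arrays against 1277 and 1235 on the Suz12KO arrays, changed by -1.11 (adjusted p = 0.00045 among all probe sets). The call of the first was lost without the first WT array, the second WT array or the second Suz12KO array (adjusted p 0.177, 0.0539 and 0.136, with -0.31 for the last), under quantile normalization (-0.42, adjusted p = 0.0668), without the filter (adjusted p = 0.062) and when probe sets were averaged (-0.28, adjusted p = 0.442). Centring turned Actn4 to -0.14 (adjusted p = 0.306).

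Nonmuscle myosin, the motor that tenses actin filaments, fell in both heavy chains included here, and 5 of the 6 genes of this role were called. Myh9, the heavy chain of nonmuscle myosin 2A, read 17762 and 18293 on the WT arrays against 11354 and 11727 on the Suz12KO arrays, a log2 fold change of -0.64 (SE 0.054, adjusted p = 9.91e-05). An unsuffixed Myh9 probe set of like level fell too, with 17247 and 18558 on the WT arrays against 11252 and 11706 on the Suz12KO arrays (log2 fold change -0.64, adjusted p = 0.00039 among all probe sets). A dimmer one showed no such gap, with 1616 and 1637 on the WT arrays against 1635 and 1538 on the Suz12KO arrays (log2 fold change -0.036, adjusted p = 0.905 among all probe sets). Myh10, that of nonmuscle myosin 2B, read 4998 and 5112 on the WT arrays against 2792 and 2586 on the Suz12KO arrays, a log2 fold change of -0.91 (SE 0.082, adjusted p = 0.000149). Cald1 encodes caldesmon, which binds filaments and restrains the motor. It had the largest change of the role, from 10518 and 10828 in WT to 3812 and 3034 in Suz12KO, or 32.1% of WT (log2 fold change -1.65, SE 0.10, adjusted p = 1.69e-05). Another 2 Cald1 probe sets, both unsuffixed, changed by -1.88 and -1.64, and both passed among all probe sets.

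Of the light chains, Myl12a, a regulatory chain, read 13615 and 14164 on the WT arrays against 8986 and 9686 on the Suz12KO arrays, a log2 fold change of -0.57 (SE 0.062, adjusted p = 0.000441). Myl9, the regulatory chain of smooth muscle and stress fibres, changed less, at 1860.3 and 1838 on the WT arrays against 1379 and 1370.3 on the Suz12KO arrays (log2 fold change -0.42, adjusted p = 0.0445). Myl6, the essential chain, overlapped between genotypes at 567 and 583 on the WT arrays against 549.8 and 589 on the Suz12KO arrays (log2 fold change -0.015, adjusted p = 0.979). For Myl6 this is the only probe set used, since 2 further ones list Myl6 together with other genes. The Myl9 call was lost whichever array was left out (adjusted p 0.0941 to 0.18), under quantile normalization (adjusted p = 0.0749), without the filter (adjusted p = 0.0521) and under averaging (adjusted p = 0.0604). Averaging also ended the calls of Myh9 (-0.50, adjusted p = 0.28) and Cald1 (-0.48, adjusted p = 0.299) and turned Myh10 to 0.20 (adjusted p = 0.78). The second Myh10 probe set and 1 of the Cald1 probe sets lay within the unused spikes in both genotypes. Another Cald1 probe set lay within them in WT only (37.1 and 101 on the WT arrays against 288 and 201 on the Suz12KO arrays).

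LIM domain proteins, named for a domain of paired zinc fingers, were mixed, with 5 of 9 lower and 1 higher. Csrp1, a muscle LIM protein relative, read 9838 and 9504 on the WT arrays against 3327 and 3779.8 on the Suz12KO arrays, a log2 fold change of -1.44 (SE 0.08, adjusted p = 1.01e-05). Pdlim7, also called Enigma, read 4735 and 4569.8 on the WT arrays against 1615 and 2087 on the Suz12KO arrays, a log2 fold change of -1.33 (SE 0.12, adjusted p = 0.000155). One further Pdlim7 probe set fell as well (-1.21), while the other overlapped between genotypes, with 1258 and 1309 on the WT arrays against 1346 and 1118 on the Suz12KO arrays (log2 fold change -0.064, adjusted p = 0.858 among all probe sets). Lasp1, which encodes an adaptor found at adhesions, read 7040.4 and 6859 on the WT arrays against 4919 and 5071 on the Suz12KO arrays (log2 fold change -0.48, adjusted p = 0.00209). Another 5 Lasp1 probe sets passed with falls and 3 stood at 0.39 to 0.65 without passing. Pdlim5, an Enigma relative, and Fhl1, a LIM-only protein of muscle, also fell, with 1636 and 1867 on the WT arrays against 1229.8 and 1068 on the Suz12KO arrays (log2 fold change -0.60, adjusted p = 0.022) for Pdlim5 and 3869 and 3793 on the WT arrays against 3018 and 3040.1 on the Suz12KO arrays (log2 fold change -0.34, adjusted p = 0.0285) for Fhl1.

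Against these, Pdlim1, which encodes an alpha-actinin partner also called Clp36, rose from 5316 and 5436 to 6856 and 6914, a log2 fold change of 0.36 (SE 0.066, adjusted p = 0.0086). Csrp2, the close relative of Csrp1, read 5243 and 4978 on the WT arrays against 5838 and 6153 on the Suz12KO arrays, and its 0.23 did not pass (adjusted p = 0.0805). The 95% interval of Csrp2, 0.068 to 0.39, shares no value with that of Csrp1, -1.62 to -1.26. Fhl2, which encodes another LIM-only protein, read 819.6 and 872 on the WT arrays against 781 and 486 on the Suz12KO arrays (log2 fold change -0.44, adjusted p = 0.301). Lima1, which encodes the filament stabiliser Eplin, read 679 and 524 on the WT arrays against 823 and 1150.2 on the Suz12KO arrays (log2 fold change 0.69, adjusted p = 0.0877), and its other probe sets above the unused spikes stood at -0.015 to 0.64.

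Several of these calls were unstable. That of Pdlim1 was lost without the first WT array (0.34, adjusted p = 0.052) and after centring (0.19, adjusted p = 0.192). Fhl1 lost its call whichever array was left out (adjusted p 0.0664 to 0.141), and Pdlim5 without the second WT array or the second Suz12KO array (adjusted p 0.156 and 0.0721). Averaging ended the calls of Pdlim1 (0.17), Pdlim5 (-0.73), Fhl1 (-0.13) and Lasp1 (-0.24), with adjusted p 0.201 to 0.86, and moved Pdlim7 to -0.87, which still passed. Among unsuffixed probe sets Pdlim5 was at -1.79 (adjusted p = 0.189). Lima1 passed without the first Suz12KO array (0.93, adjusted p = 0.0355), and Csrp2 passed under quantile normalization (0.26, adjusted p = 0.049).

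**Figure D3:**
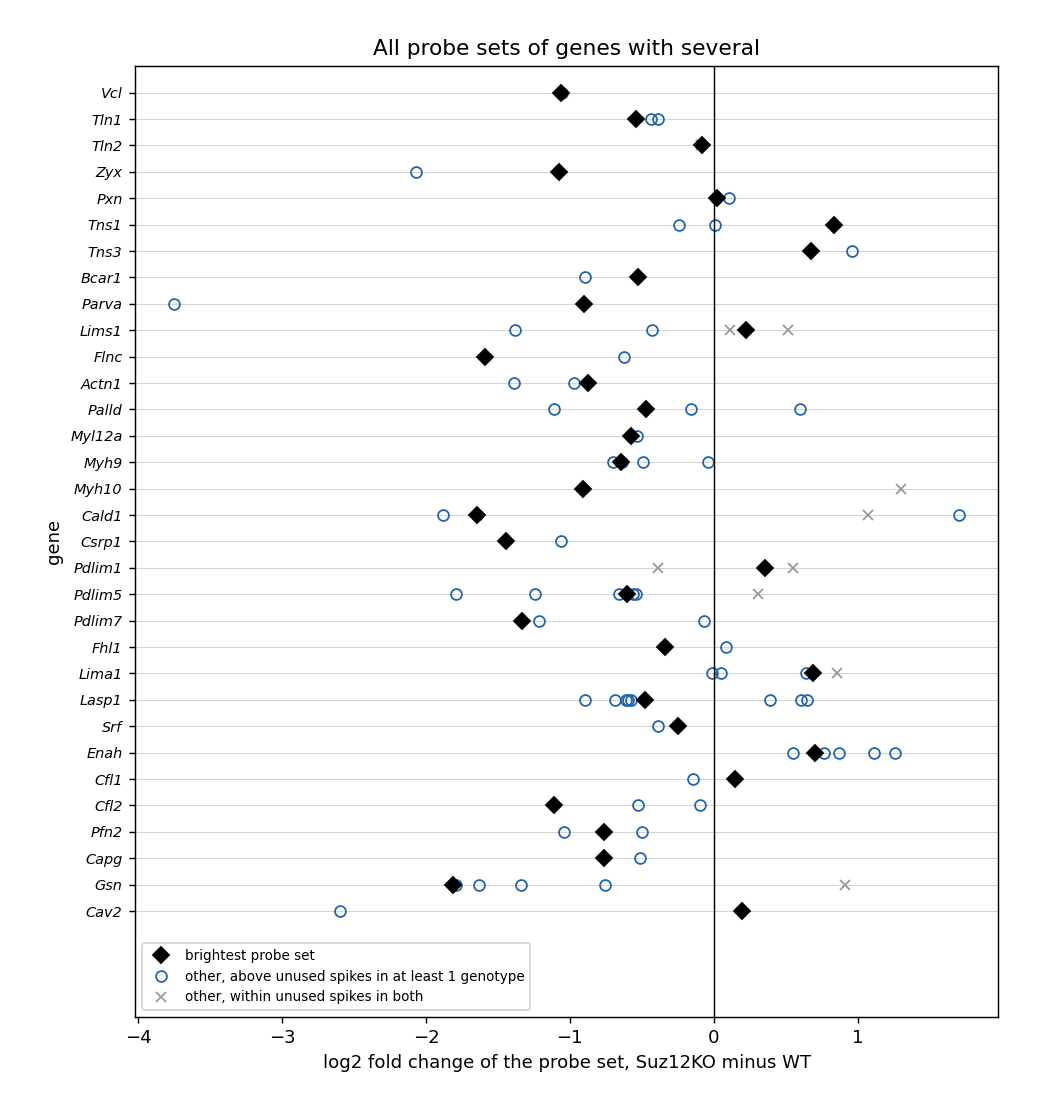
Log2 fold change (x axis, Suz12KO minus WT) of every probe set of the 32 genes that have more than 1, with genes on the y axis. Black diamonds are the brightest probe sets, open circles others above the unused spikes in at least 1 genotype and crosses those within the spikes in both. For the genes that fell, 38 of 44 open circles lie below 0.

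The second probe sets give another reading of the same RNA. Of the 25 genes that fell, 18 had a further probe set above the unused spikes in at least 1 genotype, 44 in all. Of these 44, 38 pointed the same way as the brightest one. When every probe set with 1 symbol was tested, 17 of the 44, from 9 genes, passed limma's adjusted threshold with a fall and 0 with a rise, and 27 did not pass. Of the 6 above 0, 2 (from Lasp1 and Cald1) had an unadjusted p under 0.05. In that test 3.99% of 24461 probe sets were called lower and 2.82% higher. Palld, Cald1, Fhl1 and Lasp1 are the genes with further probe sets above 0 among these 44.

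Srf itself, the transcription factor of this gene set, did not pass. It read 1477 and 1454 on the WT arrays against 1276 and 1186 on the Suz12KO arrays, with a log2 fold change of -0.25 (adjusted p = 0.272, 95% interval -0.53 to 0.032). Both Suz12KO arrays lay below both WT arrays. The second Srf probe set read 1285 and 1383 on the WT arrays against 1013 and 1016 on the Suz12KO arrays (-0.39, adjusted p = 0.144 among all probe sets).

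Vasp and Enah encode related proteins that hold growing filament ends and speed their elongation, and they changed in opposite directions. Enah, also called Mena, read 6150.1 and 6167 on the WT arrays against 9254 and 10891 on the Suz12KO arrays, a log2 fold change of 0.70 (SE 0.082, adjusted p = 0.000676). All 5 other Enah probe sets were also higher in Suz12KO, by 0.55 to 1.26, and 3 of them passed among all probe sets. Vasp read 3672 and 3834 on the WT arrays against 2893 and 3085 on the Suz12KO arrays and fell by 0.33 (adjusted p = 0.0406). The Vasp call was lost whichever array was left out (adjusted p 0.0514 to 0.205), under quantile normalization (adjusted p = 0.0518), without the filter (adjusted p = 0.053) and under averaging (adjusted p = 0.0636).

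Among the 6 proteins that sever, cap or carry actin, Gsn, Cfl2 and Pfn2 fell and 3 did not pass. Gsn encodes gelsolin, a calcium-dependent severing and capping protein. It read 2742 and 2659 on the WT arrays against 691 and 832 on the Suz12KO arrays, or 28.2% of WT, a log2 fold change of -1.81 (SE 0.13, adjusted p = 4.78e-05), and 3 of its other probe sets passed with falls of -1.34 to -1.79. Cfl2, the muscle-enriched cofilin, fell from 2878 and 2525 to 1147 and 1342 (log2 fold change -1.11, SE 0.12, adjusted p = 0.000564). Its other probe sets stood at -0.53 and -0.097 without passing. Cfl1, the widely expressed cofilin, read 30277 and 29473 on the WT arrays against 35715 and 30535 on the Suz12KO arrays (log2 fold change 0.14, adjusted p = 0.254, 95% interval -0.013 to 0.30), and its second probe set stood at -0.14.

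The profilins feed actin monomers to growing filaments. Pfn1 read 13755 and 13859.6 on the WT arrays against 13600.2 and 14781 on the Suz12KO arrays, with overlapping arrays (log2 fold change 0.038, adjusted p = 0.756, 95% interval -0.096 to 0.17). Pfn2 read 769 and 804 on the WT arrays against 481 and 434 on the Suz12KO arrays and was lower, a log2 fold change of -0.76 (SE 0.20, adjusted p = 0.0467), and the 2 intervals do not overlap (-1.22 to -0.30 for Pfn2). Capg, which encodes a capping protein related to gelsolin, read 834 and 878 on the WT arrays against 415 and 599 on the Suz12KO arrays, without overlap (log2 fold change -0.76, adjusted p = 0.0675). The differences between paralogs were not tested.

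Pfn2 lost its call whichever array was left out (adjusted p 0.0542 to 0.228), without the filter (adjusted p = 0.0721), under averaging (adjusted p = 0.0856) and when only unsuffixed probe sets were used (-0.50, adjusted p = 0.306). Averaging ended the call of Cfl2 (-0.58, adjusted p = 0.157) and moved Gsn to -1.07 (adjusted p = 0.0325). Without the second Suz12KO array, Capg (-1.02, adjusted p = 0.0206) and Cfl1 (0.26, adjusted p = 0.0186) passed. Capg also passed after centring (-0.93, adjusted p = 0.026), which turned Cfl1 to -0.023 and Pfn1 to -0.13, neither passing.

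The largest fall among the 43 genes was that of Cav1, which encodes caveolin 1, the coat protein of the membrane pits called caveolae. It read 1576 and 1709.7 on the WT arrays against 372 and 367 on the Suz12KO arrays, so that Suz12KO stood at 22.5% of WT (log2 fold change -2.10, SE 0.17, adjusted p = 7.94e-05). For Cav1 this is the only probe set used, and it has a suffix (a), so Cav1 is missing where only unsuffixed probe sets were used. Cav2, whose product pairs with caveolin 1, read little above the unused spikes, and its brightest probe set gave 202 and 219 on the WT arrays against 191 and 309 on the Suz12KO arrays (log2 fold change 0.20, adjusted p = 0.84, 95% interval -0.79 to 1.19). The second one read 220.1 and 205 on the WT arrays against 31.5 and 13.9 on the Suz12KO arrays. Its Suz12KO readings lay within the unused spikes, so it was at least 1.15-fold lower, and it was too dim on average to be tested.

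Leaving out an array leaves 1 for that genotype, which is then assumed to vary like the other genotype. In those fits, 19 of the 28 genes passed each time. The 9 others, Tln1, Bcar1, Palld, Myl9, Pdlim1, Pdlim5, Fhl1, Vasp and Pfn2, are those named above with their values. In all 25 falls the brightest probe set was lower on both Suz12KO arrays than on both WT arrays. This adds no support, since the falls were called on the same arrays, and 52.9% of all genes showed no overlap.

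Further genes of the same machinery were taken from lists set out by role. Beside their counts stand the shares over all genes tested, 5.50% lower and 4.48% higher, and among bright genes 15.7% and 15.4%. Of 29 tested proteins of the adhesion plaque outside the 43, 5 fell and 0 rose by limma, with a median log2 fold change of -0.30. That share of falls was near that of bright genes, but many of the 29 were dimmer than those bright genes. The largest falls were those of the alpha-actinin partner Pdlim3 (-1.53), the LIM protein testin, Tes (-1.15), and the zyxin relative Lpp (-1.06). Of 30 genes of actin nucleation and turnover, 12 fell and 1 rose (median -0.26). Moesin, Msn (-1.17), the monomer-recycling protein Cap1 (-1.09) and coronin 1C, Coro1c (-0.81), fell most, and the monomer-binding twinfilin Twf2 rose (0.72). The falls among plaque genes numbered 3 without either WT array and under averaging, and 10 after centring, and 1 rose without the second Suz12KO array or with the filter at the 50th percentile. Falls among the nucleation and turnover genes numbered 6 under averaging, 9 without the first WT, second WT or first Suz12KO array and 18 after centring. With a constant variance prior no list had a call.

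Genes on the list of contractile smooth muscle genes were mostly lower as well. Of 10 tested, 8 fell and 0 rose, with a median log2 fold change of -1.21. Actg2 (-0.74, adjusted p = 0.105) and Smtn (-0.65, adjusted p = 0.139) did not pass by limma. Myh11 and Lmod1, also on the list, lay within the unused spikes on all arrays and were not tested. At an unadjusted p under 0.05 by limma, 2 of the 29 plaque genes were higher and 12 lower. For the 30 nucleation and turnover genes these counts were 4 and 17, and for the 10 contractile genes 0 and 10. Over all 12735 genes tested they were 1511 higher and 1455 lower. The contractile list and the muscle markers below share 5 genes (Acta2, Actg2, Cnn1, Myh11 and Tagln). Cnn1, which encodes calponin, read 2197 and 1893 on the WT arrays against 389 and 358 on the Suz12KO arrays (-2.40). Acta2, the smooth muscle actin, read 33742 and 33855 on the WT arrays against 6821 and 7422 on the Suz12KO arrays (-2.25), and Tpm1, a tropomyosin, 22799 and 21282 on the WT arrays against 5686 and 6191 on the Suz12KO arrays (-1.89). The call of Pdlim3 was lost without the first WT array or the second WT array (adjusted p 0.0652 and 0.151) and that of Twf2 without the first WT array or the second Suz12KO array (adjusted p 0.0976 and 0.0861) and after centring (0.56). Averaging ended the calls of Lpp (-0.71) and Coro1c (-0.014) and moved Acta2 to -1.08, and when only unsuffixed probe sets were used Acta2 was at -0.54 (adjusted p = 0.729).

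**Figure D4:**
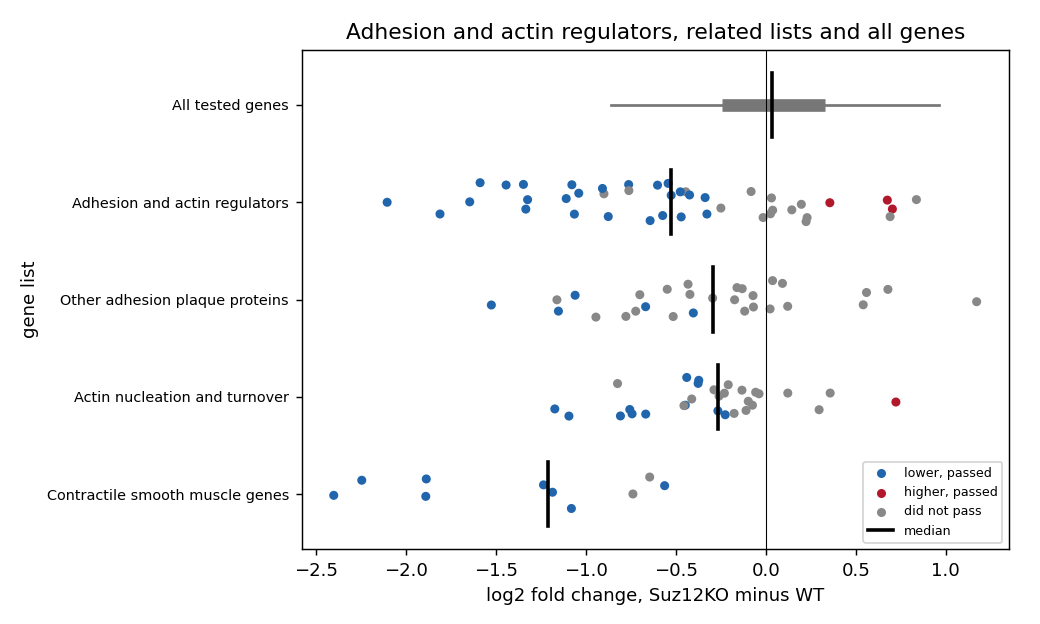
Log2 fold changes (x axis, Suz12KO minus WT) of the 43 adhesion and actin regulators and of the tested genes of 3 related lists, 1 point a gene, with vertical jitter only. Black bars are medians (-0.53 for the 43 genes, -1.21 for contractile smooth muscle genes), and for all 12735 genes the thick bar spans the 25th to 75th percentile and the thin one the 5th to 95th.

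Markers of the cells in these cultures moved too. All 13 embryonic stem cell markers were measured, and 12 rose and 0 fell, their summed signal going from 85373 and 85516 to 143059 and 146808. Dppa5a alone went from 29439 and 27579.5 to 55767 and 56548. Of 17 tested fibroblast markers, 7 fell and 1 (Col6a2) rose, and their summed signal went from 48570.0 and 46502 to 26371 and 25511. Most of these sums was Sparc and Fn1, the latter with 12917 and 12108 against 7213 and 6868. Thy1, Col6a3, Prrx1 and Loxl1 had log2 fold changes above 0 (0.41, 0.31, 0.29 and 0.13) without passing. The collagen gene Col1a1 fell from 2859 and 2599 to 435 and 448, while Pdgfrb, Dcn, Lum and Postn, which mark fibroblasts, lay within the unused spikes on all 4 arrays. Smooth and skeletal muscle markers fell in 5 of 8 tested cases, and Des rose. Their summed signal was 62919.5 and 63671 on the WT arrays against 14391 and 15536 on the Suz12KO arrays, with Myh11 and Myog within the unused spikes on all arrays. Most of that sum was Acta2 and Tagln, the latter with 20226 and 21055 against 5388 and 5755.

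Among markers of differentiating cells, Krt8, Krt18 and Nes fell, 3 of 8 tested epiblast and early lineage markers, with summed signals of 35062 and 34251 against 11880.2 and 12454. Most of these sums was Krt18 (17422 and 16555 against 6098 and 6465) and Krt8 (14549 and 14513 against 3911 and 3804). The other 5 did not pass, and of them Cdx2 and Eomes had log2 fold changes above 0 (0.78 and 0.54). Of 9 tested primitive endoderm markers, 1 (Sparc) fell, and Foxa2 lay within the unused spikes throughout. Their summed signal was 26521 and 25416 against 18712 and 19283, most of it from Sparc (18873.5 and 17287 against 11866.5 and 12159). Sparc is also 1 of the 7 fibroblast markers that fell. Sox17, Sox7 and Gata4 had log2 fold changes above 0 (0.80, 1.71 and 0.13) without passing. Both WT readings of Sox7 and of Gata4 lay within the unused spikes, and Sox7 was at least 1.51-fold higher. The part that a different share of such cells has in the lower adhesion and actin transcripts was not tested. The 3' to 5' signal ratio of Gapdh, which follows how intact the RNA is, was 0.807 and 0.756 on the WT arrays against 0.889 and 0.871 on the Suz12KO arrays. The same ratio of Actb was 1.15 and 1.16 against 1.14 and 1.14, and that of Tfrc 2.55 and 2.47 against 2.43 and 2.84, which overlap. The part of these ratios was not tested either.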

How the data were processed

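Total RNA of mouse embryonic stem cell clones was pooled by genotype and hybridised to Affymetrix arrays, per the labels. The deposited values are an intensity per probe set on a linear scale. For the summarisation software, the sources used here give no name. The deposited values were already scaled, since their mean after trimming 2% at either end was 500.003 on every array, which hides any shift common to most genes. No further normalization was applied.

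Symbols came from the platform annotation. Of 45101 probe sets, 64 were controls, 34945 listed 1 symbol, 932 listed several and 9160 were unnamed here. The brightest probe set by mean log2(signal + 16) was taken for each of the 18193 genes. A filter removed genes below the 30th percentile of that mean. Suz12KO was compared with WT over the remaining 12735 genes with limma 3.58.1 (R 4.3.3), using eBayes with trend and a two-sided p adjusted by Benjamini-Hochberg. Where both arrays of a genotype lay within the unused spikes, "at least N-fold" compares the mean of the brighter genotype with the top spike of each dim array, or the probe set there if higher. The procedure was tested on simulated data. The genes, lists, roles and rules were chosen with earlier results of these data known, and all 43 measured genes are named. One related list is not reported here. From each of the other lists, genes that passed are named by size of change, up to 3 in each direction. The promoter motifs and the test of every probe set were added after the values had been seen. Alternatives were another pseudocount, quantile normalization, centring, other filters, averaged or suffix-free probe sets, a constant or a robust variance prior, a replicate block, and leaving out each array.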

Additional observations from a re-analysis of the deposited data

How the results depend on the processing

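The number of falls among the 43 genes stayed within 1.5 times the count of 25 under every alternative except averaging probe sets (13) and eBayes without trend (0 falls and 0 rises by limma, with 27 of the 43 genes at an unadjusted p under 0.05). These numbers also count falls that are not among the 25, such as Parva under averaging. With the filter at the 50th percentile 42 of the 43 genes were tested, and with suffix-free probe sets 36. Rises numbered 7 in place of 3 with the replicate number as a block, and 2 to 5 when 1 array was left out. All 28 calls also passed under the replicate block. It gave 8 falls and 2 rises among the 29 plaque genes outside the 43, in place of 5 and 0. The replicate numbers are only names here. The within-genotype differences of the 2 numbers correlated at 0.015 between genotypes, across genes. With 1 array left out the falls numbered 18 to 21 and the median log2 fold change of the 43 lay between -0.54 and -0.47. That median was -0.48 under quantile normalization, -0.69 after centring, -0.45 with averaged probe sets and -0.49 without s, x or a suffixes. Over all genes, calls were 294 higher and 1243 lower after centring, 305 and 306 with averaged probe sets, 1016 and 1082 with the block, and 0 and 0 without trend (2332 genes at an unadjusted p under 0.05). They were 407 to 460 higher and 391 to 740 lower with 1 array left out.

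Among the 43 genes, 18 values changed sign under an alternative. After centring these were Pxn (-0.14), Actn4 (-0.14), Cfl1 (-0.023) and Pfn1 (-0.13), and with averaged probe sets Lims1 (-0.19), Myh10 (0.20) and Cav2 (-1.20). Without s, x or a suffixes they were Tns1 (-0.24), Lims1 (-0.43) and Cfl1 (-0.14). With 1 array left out, the lowest and highest values were -0.26 to 0.097 for Tln2, -0.28 to 0.33 for Pxn, -0.071 to 0.52 for Lims1, -0.063 to 0.034 for Myl6, -0.022 to 0.098 for Pfn1 and -0.13 to 0.52 for Cav2. Myh10 is the only one of these genes that had passed the test, and its second probe set lies within the unused spikes. The cause of the other changes was not tested. The number of arrays, 2 for each genotype, limits the precision throughout.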
